A study of Homo sapiens with 2 samples.

Results

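GSTP1, GPX3 and MGMT are 3 of the 84 genes on a SYBR Green qPCR array that was run on RNA of LNCaP cells. They were picked by name from the array, as the genes for glutathione enzymes and for a DNA repair protein, and not by their values. The array was run on 1 sample of control LNCaP cells and 1 sample of BMI1-silenced LNCaP cells. LNCaP is an established human line derived from a metastasis of prostate cancer. Equal amounts of RNA had been mixed within each group, so no replicate exists, no test was possible, and the variation between cultures is unknown. The sample labels name siRNA as the silencing agent, the paper's methods name a vector-borne short hairpin RNA (pGeneClip-BMI1-shRNA), and neither says what the control cells of the array had received. According to the methods, transfection was incomplete in each line and least complete in LNCaP. BMI1, a subunit of a Polycomb repressive complex, has no assay among these genes, so the silencing itself cannot be read from the array.

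Glutathione is a small peptide with a reactive thiol that protects cells against oxidants and electrophiles. GSTP1 (glutathione S-transferase pi 1, NM_000852) joins glutathione to electrophilic compounds, and GPX3 (glutathione peroxidase 3, NM_002084) is a secreted selenoprotein that uses glutathione to reduce peroxides. MGMT (O-6-methylguanine-DNA methyltransferase, NM_002412) removes alkyl groups from guanine in DNA by taking them onto its own cysteine. The genes share no pathway beyond this defence against reactive compounds. Their promoters hold more CpG dinucleotides than the median promoter, by a small margin for GPX3, and methylation of these promoters in tumors is well known. In prostate cancer the silencing of GSTP1 by methylation is among the most frequent changes described, and LNCaP is a line commonly used as an example of a silent GSTP1.

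The stretch of 250 bases before the transcription start site is shown for each gene, since the CpG dinucleotides in it, written in capitals, are where methylation has been studied. The sequences are RefSeq reference sequences of GRCh38.p14, on the plus strand and from 5′ to 3′, and the array measured neither methylation nor binding there. They lie at chr11:67583562-67583811 for GSTP1, chr5:151020341-151020590 for GPX3 and chr10:129466991-129467240 for MGMT.
GSTP1: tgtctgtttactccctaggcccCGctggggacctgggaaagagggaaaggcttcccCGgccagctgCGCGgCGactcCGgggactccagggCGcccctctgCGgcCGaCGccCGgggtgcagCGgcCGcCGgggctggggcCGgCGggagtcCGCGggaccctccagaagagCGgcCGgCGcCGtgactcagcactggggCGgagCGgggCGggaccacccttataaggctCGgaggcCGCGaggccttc
GPX3: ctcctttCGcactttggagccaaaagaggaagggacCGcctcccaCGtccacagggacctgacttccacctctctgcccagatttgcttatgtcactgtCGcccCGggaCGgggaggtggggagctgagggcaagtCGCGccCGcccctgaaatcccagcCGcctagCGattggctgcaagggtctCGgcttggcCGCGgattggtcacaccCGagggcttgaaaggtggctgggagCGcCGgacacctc
MGMT: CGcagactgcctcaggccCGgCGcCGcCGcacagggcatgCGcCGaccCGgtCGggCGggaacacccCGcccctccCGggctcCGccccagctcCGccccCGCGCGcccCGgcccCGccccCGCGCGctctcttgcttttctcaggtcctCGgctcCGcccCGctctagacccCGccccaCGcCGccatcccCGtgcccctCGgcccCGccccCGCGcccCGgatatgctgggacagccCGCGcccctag

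The GSTP1 stretch held 28 CpG dinucleotides, GPX3 17 and MGMT 36, against a median of 11 in the same window of 27305 RefSeq promoters. The ratio of observed to expected CpG was 0.806 for GSTP1, 0.656 for GPX3 and 0.995 for MGMT, with a median of 0.556 over all promoters. By this ratio GPX3 was above 56.3% of the promoters, near the middle of them. MGMT had more CpG dinucleotides than 95.3% of the promoters, GSTP1 more than 84.5% and GPX3 more than 61.2%. On both strands the letters GGGCGG, the core of the GC box, were found 8 times for MGMT, 2 times for GSTP1 and 1 time for GPX3, and 42.3% of all promoters held them. The letters TGACTCA, the core of an AP-1 element, were found 1 time in GSTP1, starting at position -66 from the start site, and in neither other gene, and 4.16% of all promoters held them on either strand. The letters TATAA were found at 1 place in GSTP1, where both strands read them from overlapping positions -29 and -28, and 19.6% of all promoters held them. These matches describe letters and not bound sites.

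**Figure D1:**
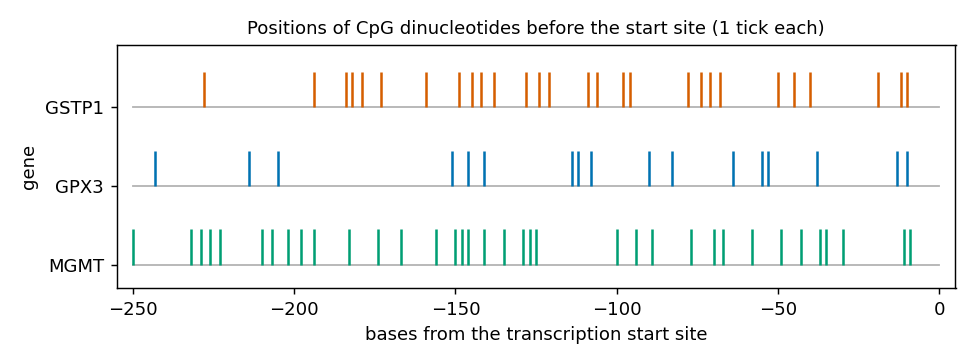
Each tick is a CpG dinucleotide in the 250 bases before the transcription start site, with the distance from the start site in bases on the horizontal axis and a line for each gene. MGMT has 36 ticks, GSTP1 28 and GPX3 17, and those of GPX3 are the sparsest.

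The deposited normalized value is 2 to the power of minus Delta Ct, where the threshold cycle (Ct) is the PCR cycle at which a well's fluorescence passes a set level and a lower Ct means more template. Groups are those of the normalized table, and the raw Ct table, taken as named, assigns each value to the opposite group. A normalized value is read here as a level, and assays of different genes may amplify with different efficiency, so a rank of levels compares assays as well as transcripts. The normalized value of GSTP1 was 119 in the control sample and 32.8 in the BMI1-silenced sample, which correspond to Ct values of 20.8 and 22.3. It had the 5th highest value of the 84 genes in control and the 4th highest in BMI1-silenced cells. By raw Ct it ranked 3rd in one column and 4th in the other. GSTP1 was thus among the highest readings of the panel in both samples. In RNA of whole cultures, less transcript per cell and fewer cells that hold it cannot be told apart.

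For GPX3 the normalized value was 0.157 in the control sample and 0.580 after silencing, with Ct values of 30.3 and 28.2. It ranked 72nd of 84 in control and 57th in BMI1-silenced cells, near the low end in the former. GPX3 was thus the one of the 3 genes with the higher value after silencing. MGMT ran in the opposite direction, from 3.06 in the control sample to 0.564 after silencing, with Ct values of 26.0 and 28.2 and ranks of 48th and 58th. In BMI1-silenced cells GPX3 and MGMT therefore had nearly the same value. On the log2 scale GPX3 minus MGMT was -4.28 in control and 0.04 in BMI1-silenced cells. The authors had set each Ct above 32 to 32 before normalizing, and none of these 6 values was at that ceiling.

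**Figure D2:**
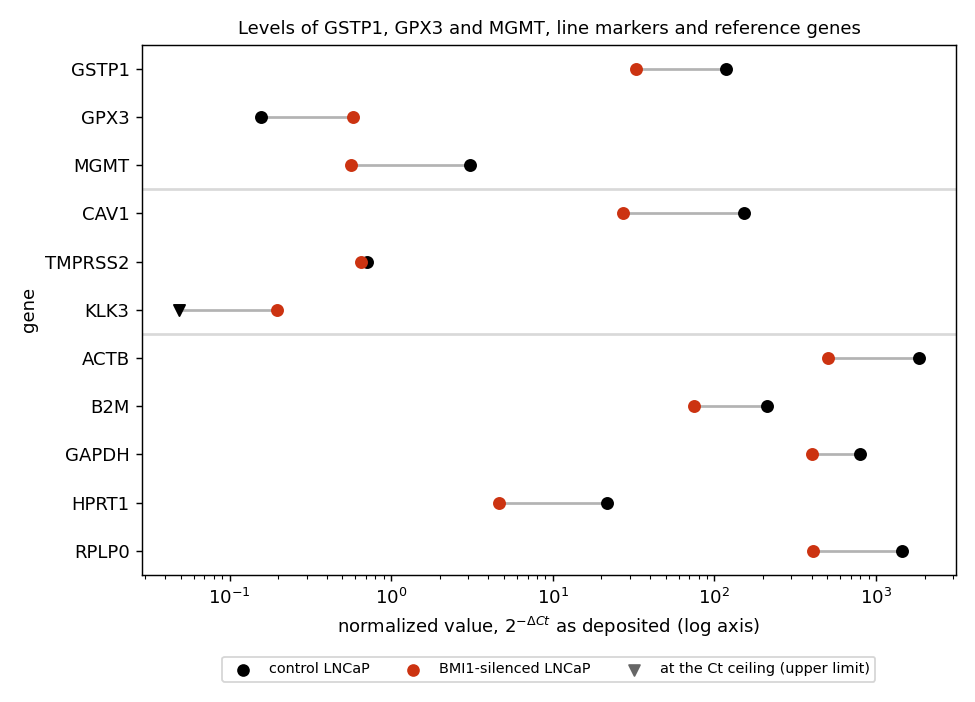
Deposited normalized values on a log axis for GSTP1, GPX3 and MGMT (top), genes read as LNCaP markers (middle) and the 5 reference genes (bottom). Control LNCaP cells are black and BMI1-silenced LNCaP cells red, with 1 sample each and hence no error bars. The reference genes, GSTP1, MGMT and CAV1 have the lower value in BMI1-silenced cells and GPX3 has the higher, while KLK3 in control cells is at the ceiling and marked as an upper limit.

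The high level of GSTP1 goes against what is known of LNCaP, so other genes that mark the line were read in the same samples. CAV1 (caveolin 1), which is low or absent in LNCaP, stood at normalized values of 153 (control) and 27.0 (BMI1-silenced), the 3rd and 5th highest of the panel. PTGS2, also low or absent in LNCaP, ranked 62nd with 0.827 and 76th with 0.151. KLK3, the gene for prostate-specific antigen, which LNCaP is known to express strongly, was at the ceiling in control cells and had a value of 0.197 in BMI1-silenced cells, where it ranked 73rd. TMPRSS2, a protease gene that androgen induces, had values of 0.713 and 0.653 and ranked 64th and 51st. Whichever raw column belongs to which group, GSTP1 had a Ct of 22.3 and 20.8 and KLK3 of 29.7 and 34.2 in these columns. The marker genes GSTP1, CAV1 and KLK3 thus went against the labelled line in both samples. PTGS2 and TMPRSS2 were each under the ceiling in both samples. PTGS2 had the higher value of the 2 in control cells (0.827 against 0.713). In BMI1-silenced cells it had the lower (0.151 against 0.653). Neither gene is therefore taken here as a sign of the line. The cells are called LNCaP below because the labels do so.

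The 5 reference genes on the array were ACTB, B2M, GAPDH, HPRT1 and RPLP0, whose transcripts are usually taken as steady. Their normalized values were lower in BMI1-silenced cells, with a mean log2 ratio of -1.68, or 3.20-fold lower, so a ratio of deposited values carries that shift. The 3 positive PCR control wells, which hold a template of their own, had a mean log2 ratio of -0.36, with an SD of 0.20 between wells. Changes are given relative to the mean of the 5 reference genes, whose log2 changes had an SD of 0.47 around it (from -0.53 for HPRT1 to 0.71 for GAPDH), so that the mean has an SE of 0.21 over genes. This spread describes reference genes on the plate and not cultures.

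Relative to the 5 reference genes, the log2 change of GPX3 was 3.56, that is, a level 11.8-fold higher after BMI1 silencing. It exceeded the spread of the reference genes, and with any of the 5 as the only reference it lay between 2.86 (GAPDH) and 4.09 (HPRT1), or from 7.24-fold to 17.1-fold. In the normalized table the change was the 9th highest among 83 panel genes (1 gene of the 84 was at the ceiling in both samples). GPX3 was at least 2-fold higher, the paper's cut-off, as were 29 of the 83 genes, or 34.9% of them. GPX3 was the member past the cut-off, 1 of 3, and this share is near that of the panel.

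The log2 change of GSTP1 relative to the 5 reference genes was -0.17, which is within the spread of these genes, and no direction can be given for it. Taken against HPRT1 it was 0.36 and against GAPDH -0.88, and against ACTB and RPLP0 it came to 0.0038 and -0.0059. The ratio of GSTP1 in the samples was therefore almost that of ACTB and RPLP0. GSTP1 ranked 53rd from the highest of the 83 changes in the normalized table.

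MGMT had a log2 change of -0.76, or 1.69-fold lower, which is larger than the SD of the reference genes but does not pass the cut-off. It was negative with each reference gene alone, from -0.23 with HPRT1 to -1.47 with GAPDH, and passed the cut-off with GAPDH alone. MGMT ranked 64th of the 83 changes in the normalized table. On this scale 16 of the 83 genes, or 19.3%, were at least 2-fold lower, and none of the 3 members was.

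Where the deposited normalized values are set against each other with no further reference, the ratio of BMI1-silenced to control was 3.69 for GPX3, 0.277 for GSTP1 (3.61-fold lower) and 0.184 for MGMT (5.42-fold lower). On that scale GSTP1 and MGMT were past the 2-fold cut-off, but so were 52 of the 83 genes, or 62.7%, in the same direction. GPX3 was on that scale 1 of 12 genes, or 14.5%, that were at least 2-fold higher. Hence GPX3 was higher on either scale, and GSTP1 and MGMT shared their direction with most of the panel. Set against the positive PCR control wells, the log2 changes were 2.24 for GPX3, -1.50 for GSTP1 and -2.08 for MGMT, a reference added after seeing the data.

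**Figure D3:**
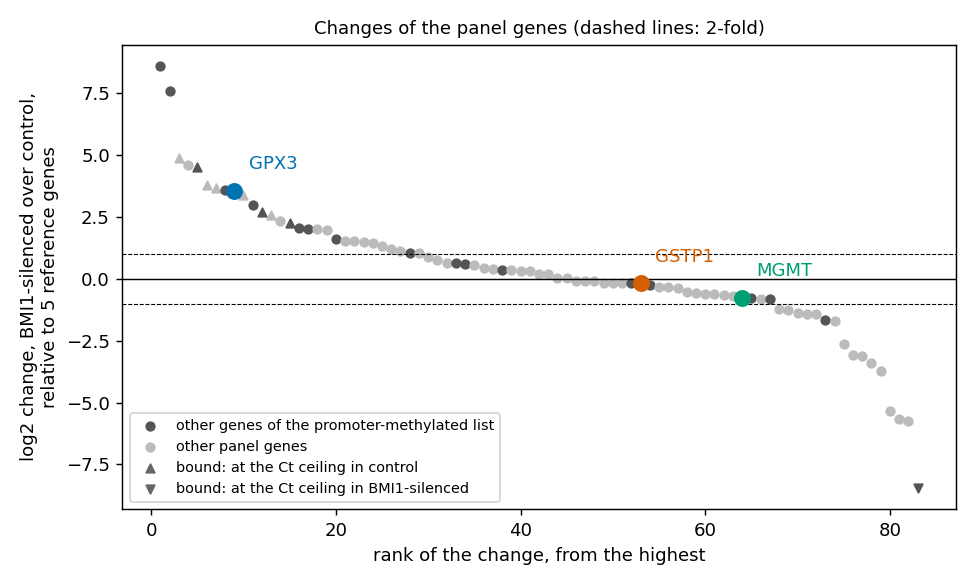
Log2 changes (BMI1-silenced over control, relative to 5 reference genes) of 83 panel genes against their rank from the highest, with triangles for bounds where a gene is at the Ct ceiling in 1 sample and dashed lines at 2-fold. GPX3 at 3.56 lies above the upper line, and GSTP1 at -0.17 and MGMT at -0.76 lie between the lines.

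Differences between members do not depend on the reference, which cancels. GPX3 moved against GSTP1 by 3.74 log2 units, so that the ratio of GPX3 to GSTP1 was 13.3 times higher in BMI1-silenced cells. GPX3 moved against MGMT by 4.32 log2 units. GSTP1 and MGMT differed in their change by 0.59 log2 units. The positive PCR control wells gave a Ct SD of 0.359 in the raw column named for control and 0.482 in the other, which for a difference of changes over 4 wells combines to an SD of 0.85 log2 units. The 0.59 units between GSTP1 and MGMT lie within it. That SD takes the control wells of the samples as unpaired. Paired well by well, their log2 ratios had a smaller SD, 0.20 for a single change. The wells therefore do not settle whether the 0.59 units exceed the well noise, and no order of the changes of GSTP1 and MGMT is given. Both SDs cover wells of a control template and not cultures, whose variation is unknown for GPX3 as well.

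The raw Ct table was used as a check, and it turned the groups around. The column that carries the name of the control sample has a Ct of 22.3292 for GSTP1, 28.1527 for GPX3 and 28.1927 for MGMT, and the column of the BMI1-silenced sample has 20.7566, 30.3165 and 26.0345. The values of 3 of the 3 genes equalled those behind the normalized table to within 0.001 cycles once the raw columns were exchanged. With the columns as named, the log2 change was -3.56 for GPX3, 0.17 for GSTP1 and 0.76 for MGMT. The sizes are the same and each sign is opposite. Among the same 83 genes, the rank from the highest change was then 70th for GPX3, 31st for GSTP1 and 20th for MGMT. The direction given for GPX3 thus follows the normalized table and the header that assigns its columns to test and control, and the 2 tables alone do not settle which assignment holds for the RNA. The study's immunoblots, which cover proteins of some panel genes, were not used here. The wells that test for genomic DNA and those that test for reverse transcription were pooled, and their lowest Ct was 41.6. Each Ct of the 3 genes was lower than that. Because the kinds of well were not read apart, this value does not show how well reverse transcription worked. The efficiency of reverse transcription was not tested in either sample.

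**Figure D4:**
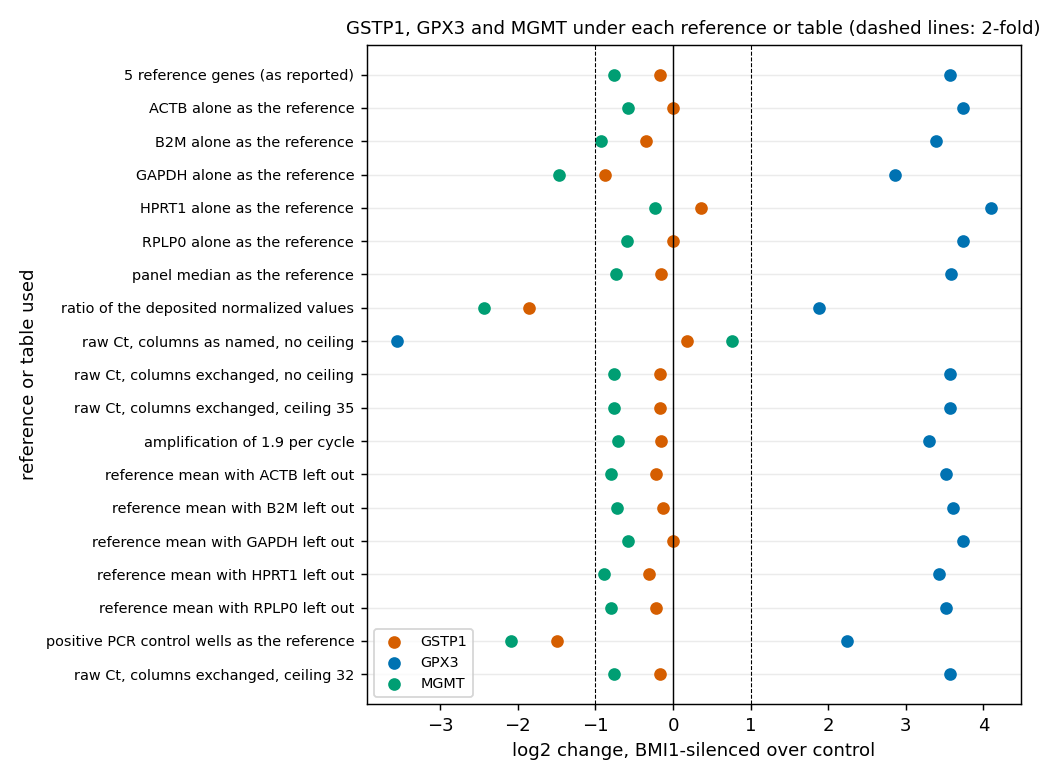
Log2 changes (BMI1-silenced over control) of GSTP1, GPX3 and MGMT, a row for each reference or table, with dashed lines at 2-fold. GPX3 is past the upper line in each row except for the raw Ct columns as named, where it is at -3.56, and GSTP1 is past the lower line with the ratio of deposited values (-1.85) and with the positive PCR control wells (-1.50).

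The genes whose pair of levels came closest to each member were sought among the 73 other genes under the ceiling in both samples, by the distance between pairs of log2 normalized values. TNFRSF10D, a decoy receptor for the death ligand TRAIL, was nearest to GPX3 at a distance of 0.064, with normalized values of 0.160 and 0.604 and a log2 change of 3.60. The next was EGR3, an early growth response transcription factor, at 0.99. CAV1 was nearest to GSTP1 at 0.46, with a log2 change of -0.82, followed by TFPI2, a protease inhibitor, at 1.23 with a change of 0.66. For MGMT the nearest were DDX11, a DNA helicase gene, at 0.43 and DLC1 at 0.47, both with a change of -0.16. With 2 samples such a distance describes levels alone.

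GSTP1, GPX3 and MGMT belong to a list of 23 panel genes known for promoter methylation in prostate cancer. On this list 12 genes were at least 2-fold higher in BMI1-silenced cells relative to the reference genes, 2 were at least 2-fold lower and 9 within 2-fold, with a median log2 change of 1.06, while the median of the 83 genes was 0.20. These counts are 52.2% and 8.7% of the list, against 34.9% and 19.3% of all 83 genes and 28.3% and 23.3% of the 60 genes outside the list. The list was drawn up with earlier results of these data known, so this contrast is not independent of them. In control cells 3 genes of the list were at the ceiling, and in BMI1-silenced cells 1 was. Apart from the 3 members, 11 of the other 20 genes were higher, 2 lower, and the median was 1.33. GPX3 was thus with the larger number of the list, and GSTP1 and MGMT were not. Of the Wnt antagonists on the list, DKK3 had a log2 change of 2.97 and SFRP1, at the ceiling in control cells, of at least 2.25. SLC5A8, a solute carrier gene, was also at the ceiling in control cells and had a change of at least 4.53. APC, a tumor suppressor of the Wnt pathway, had 0.36. ZNF185, a LIM domain gene at the ceiling in BMI1-silenced cells, had a change of -8.46 or lower. CDKN2A, which codes for p16, and TIMP3, a metalloprotease inhibitor, had the highest values of the list, 7.60 and 8.62, but their normalized values did not match the raw table. In the ratio of deposited values, 7 of the 23 genes (30.4%) were at least 2-fold higher and 11 (47.8%) lower, against 14.5% and 62.7% of the 83 genes.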

How the data were processed

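Control LNCaP cells and BMI1-silenced LNCaP cells were compared on a 96-well SYBR Green qPCR array, from 1 microgram of total RNA and with 45 cycles, with 1 pooled sample per group. The authors deposited normalized values, each a ratio of a gene to a reference (2 to the power of minus Delta Ct), raw Ct values, and a table of their own fold changes that was not used beyond its header. The header gives the fold change as test over control and as Sample 2 over Sample 1, which assigned the columns. From the values, the authors' reference Ct was 27.6 for control and 27.4 for BMI1-silenced cells, with a ceiling of 32. With the raw columns exchanged, 76 of 96 wells matched the normalized table (within 0.001 cycles), and 0 as named.

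Normalized values were put on the log2 scale, the control was subtracted from the BMI1-silenced sample gene by gene, and the mean over the 5 reference genes was taken off. Values at the ceiling in 1 sample gave bounds. Nothing was tested, since there was 1 sample per group. Symbols came from RefSeq (GRCh38.p14) for 88 of 89 assays, and promoters from the RefSeq promoter table, which held 3 of the 3 genes. The genes named are the 3 genes, the reference genes, line markers, the 2 nearest genes of each and 7 genes of the methylation list. Of the 4 markers known to be expressed in the line, 2 are not reported here. The genes, lists and settings were chosen with earlier results of these data known. The computation was checked on simulated Ct values of 84 genes with noise of 0.3 cycles, where 20 of the 20 genes given a known change were recovered. The changes given were far past the 2-fold cut-off, and the simulated levels were set below the ceiling. The noise was also below the SDs of the positive PCR control wells (0.359 and 0.482). The simulation thus checks the arithmetic and not the reading of low levels or small changes. Alternatives were other references, the raw tables, amplification of 1.9 per cycle, other thresholds and a filter on low levels. Python 3.11.15, numpy 2.4.6 and matplotlib 3.10.9 were used.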

Additional observations from a re-analysis of the deposited data

How the results depend on the processing

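No paired analysis was possible because the control and the silenced group hold a single pooled sample each. Limits were 1.5 times for a count, 0.1 for a median and 0.47, the SD of the reference genes, for a gene. Of 18 alternatives, 17 kept GPX3 at least 2-fold higher, and the raw columns as named did not. The alternatives are not independent checks. The exchanged raw columns return the same GPX3 change by construction, since its wells are under each ceiling and match the normalized values. The references with 1 gene left out reuse the same reference genes. GSTP1 passed 2-fold in 2 and MGMT in 3. The references with 1 gene left out and the positive PCR control wells were added after seeing the data, as was the exchanged raw table with a ceiling of 32. A change of reference shifts every gene by the same amount, which is the cause by construction. Nothing here shows the spread between cultures.

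With GAPDH alone the log2 changes were -0.88 (GSTP1), 2.86 (GPX3) and -1.47 (MGMT), 19 panel genes were higher and 29 lower, 5 genes of the methylation list were lower, and its median was 0.35. With HPRT1 alone they were 0.36, 4.09 and -0.23, with a median of 1.59. With ACTB, B2M or RPLP0 alone the median was 1.24, 0.89 or 1.23, and with GAPDH or HPRT1 left out of the mean it was 1.24 or 0.93. As ratios of deposited values the changes were -1.85, 1.88 and -2.44, with 12 panel genes higher and 52 lower, 7 and 11 on the list, and a median of -0.62. With the positive PCR control wells as the reference they were -1.50, 2.24 and -2.08, with 14 and 43 on the panel, 7 and 8 on the list, and a median of -0.26.

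Taken with its columns as named, the raw Ct table gave -3.56 for GPX3 and 0.76 for MGMT, differences of 3.74 (GSTP1 minus GPX3), -0.59 (GSTP1 minus MGMT) and -4.32 (GPX3 minus MGMT), 16 panel genes higher and 31 lower, 2 and 13 on the list, and a median of -1.60. These signs depend on the column assigned to the control sample. With the raw columns exchanged, the median was 1.60 with no ceiling and at ceilings of 35 and 32. With only genes under Ct 30 in at least 1 sample it was 0.66. At 4-fold 18 panel genes were higher and 9 lower, and 1 gene of the list was lower. At 1.5-fold 5 genes of the list were lower. An amplification of 1.9 per cycle moved no result past its limit.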
